A study of Mus musculus with 6 samples.

Results

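Transcripts of 37 genes of fatty acid oxidation and ketone body formation were followed in mouse liver after crizotinib. The genes were taken by symbol from a table of 26123 genes, each was found there once, and all 37 passed the filter on low counts. They comprise 20 mitochondrial proteins, 10 peroxisomal proteins and 7 placed in neither class. Those 7 are Ppara, Acsl1, Fabp1, Acot1, Vnn1 and, because they work in both organelles, Ech1 and Crat. Annotation terms also name both organelles for 6 of the 10 peroxisomal genes (Acaa1a, Acaa1b, Ehhadh, Hsd17b4, Eci2 and Crot). The classes are therefore not exclusive. Liver RNA came from 3 ICR mice, an outbred stock, labelled control and 3 labelled crizotinib, a cancer drug that blocks the kinase activity of receptors such as MET and ALK. The series describes 7 days of adaptation, a dose of 300 mg/kg with normal saline as the other agent, and tissue taken 1 week after dosing. Since that account is unclear on who was dosed, groups were taken from each sample's treatment label. The labels name no sex, age or feeding state.

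Fatty acids are burned in liver after they are bound by carrier proteins, joined to coenzyme A and passed into mitochondria as carnitine esters. There each turn of beta-oxidation dehydrogenates, hydrates, dehydrogenates again and cleaves the chain to release acetyl-CoA, which the liver turns into ketone bodies when carbohydrate is scarce. Peroxisomes run a parallel pathway for very long and branched chains. The nuclear receptor PPARalpha, encoded by Ppara, drives many of these genes during fasting.

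Libraries held between 51123361 and 67947970 counts, and mitochondrially encoded genes took 7.47% to 44.5% of the counts of controls and 5.53% to 14.4% of those of crizotinib livers, with the highest share in control replicate 1 (p = 0.2 by a two-sided exact permutation test, which cannot go below 0.1 with 3 against 3). As a check of the tissue, 9 hepatocyte markers were detected in every library and summed to between 70159.7 and 86318 CPM in controls and between 45343 and 56313 CPM in crizotinib livers. Albumin carried much of that sum, with a mean of 49749 CPM in controls and 17776 CPM in crizotinib livers, and the estimates of 4 of the 9 markers were below 0 (Alb, Ttr, Apoa1 and Serpina1c) and those of the others above 0, so the list had no common direction. CPM, library-scaled counts after trimmed mean of M values normalization, serve to compare libraries. FPKM, which also divide by gene length, serve to compare genes. Fold changes set crizotinib against control on the log2 scale, with n = 3 in each group and p from edgeR's quasi-likelihood test adjusted over 16492 genes by the Benjamini-Hochberg method, and a gene is called at an adjusted p under 0.05.

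None of the 37 genes was called in crizotinib livers, while 0.34% of all genes tested were, 0.091% higher and 0.249% lower. No interval of a gene of the mitochondrial beta-oxidation spiral itself excluded 0. The receptor gene Ppara, the acyl-CoA synthetase gene Acsl1 and the fatty acid binding protein gene Fabp1 stood lower, and Crat, carnitine acetyltransferase, and Pdk4, a kinase that shuts down pyruvate dehydrogenase, stood higher. These 5 genes had an unadjusted p under 0.05, which is 13.5% of the 37 beside 15.3% of all genes tested, 8.06% higher and 7.25% lower. The median log2 fold change of the 37 was -0.17, that of the 20 mitochondrial genes -0.17 and that of the 10 peroxisomal genes -0.12, against a median of 0.00 for all genes. Estimates of 25 of the 37 were below 0, a larger share than the 50% over all genes. Of the 37, 23 lay within 0.5 of 0 on the log2 scale and 29 within 1, beside 54.1% and 78.8% of all genes. The medians of the 37 and of both classes were above 0 without crizotinib replicate 1 (0.05, 0.00486 and 0.22), and the mitochondrial median was also above 0 without control replicate 2 (0.04). On log2(FPKM + 1) and log2(FPKM + 0.1) the mitochondrial median was 0.03 and 0.04, below the medians of all genes there (0.07 and 0.16). The 95% intervals had a median half-width of 1.11 on the log2 scale, so for many members a difference of that size lay inside the interval. Because whole liver was sequenced, fewer hepatocytes and less RNA per hepatocyte cannot be told apart.

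**Figure D1:**
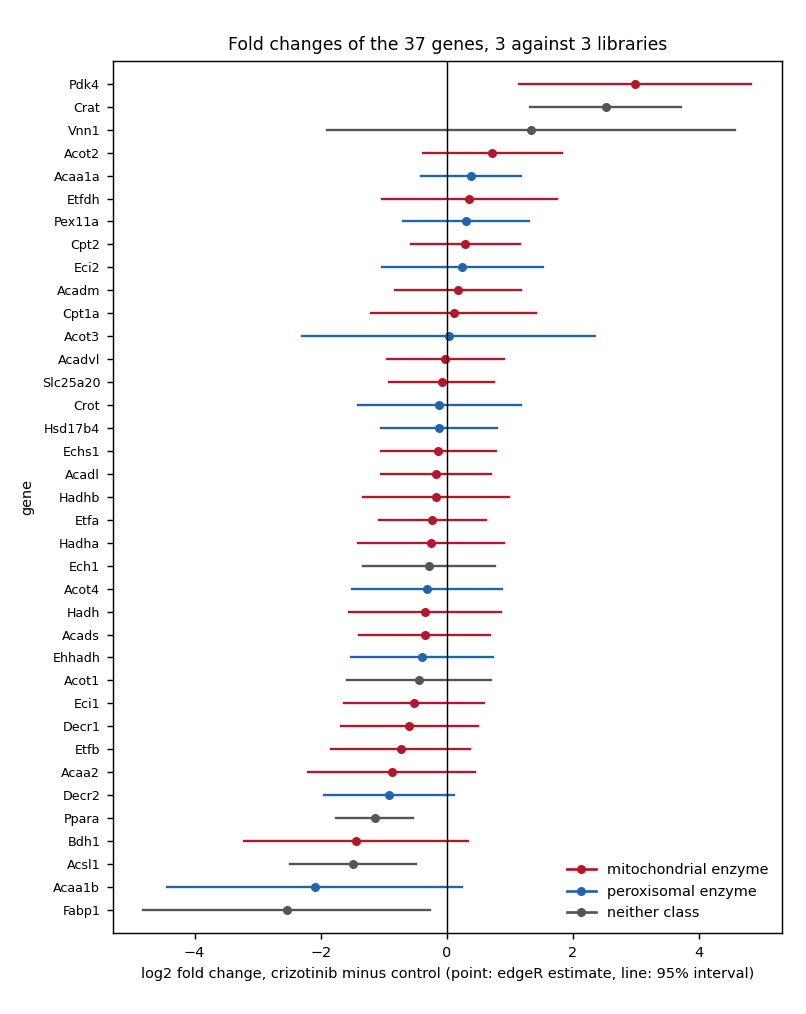
Log2 fold change of each of the 37 genes (x axis, crizotinib minus control, edgeR estimate as a point and its 95% interval as a line) by gene (y axis), with mitochondrial proteins in red, peroxisomal proteins in blue and the others in grey. Intervals of 32 of the 37 genes include 0, and the other 5 are those of Ppara, Acsl1, Fabp1, Crat and Pdk4.

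The calls depended on the method and on the libraries. DESeq2 called those same 5 genes, Crat and Pdk4 higher and Ppara, Acsl1 and Fabp1 lower, at adjusted p between 0.000119 and 0.0288, where it called 6.69% of all genes, 3.1% higher and 3.59% lower. Limma with voom and library weights called 2 members higher and 6 lower, where 19.5% of all genes were called, 9.34% higher and 10.2% lower. Without crizotinib replicate 3, edgeR called Crat and Pdk4 higher and Ppara, Fabp1 and Acaa1b lower, where 8.83% of all genes were called, 4.11% higher and 4.72% lower. Without control replicate 1 and crizotinib replicate 3 together, Crat was called higher and Ppara and Fabp1 lower, beside 10.3% of all genes, 4.77% higher and 5.52% lower. No member was called by edgeR without any one of the other 5 libraries, where at most 0.0176% of all genes were.

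Ppara, the gene of the receptor (chromosome 15, 85734983 to 85802819 on GRCm38), had 19.4, 24.5 and 19.5 CPM in control replicates 1, 2 and 3 and 7.43, 9.83 and 11.4 CPM in crizotinib replicates 1, 2 and 3. Every crizotinib library lay below every control in CPM. In the deposited FPKM the Ppara groups overlapped, with 3.03 in control replicate 1 and 3.27 in crizotinib replicate 3, and limma gave an adjusted p of 0.447 on log2(FPKM + 1). Control replicate 1 stood low in FPKM beside its CPM. For Ppara, control replicates 1 and 3 had 19.4 and 19.5 CPM but 3.03 and 4.53 FPKM. This was not particular to Ppara: for Etfb, control replicates 1 and 2 had 323 and 174 CPM but 166 and 170 FPKM. The part of this library difference in the overlap was not tested. The log2 fold change of Ppara from counts was -1.14 ± 0.26 (SE; 95% interval -1.75 to -0.53), or 2.21-fold lower, with an adjusted p of 0.135. Groups without overlap were found for 4 of the 37 genes (10.8%) and for 21.0% of all genes tested, 10.7% higher and 10.3% lower.

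Uptake and activation were represented by Fabp1, the liver fatty acid binding protein that carries fatty acids through the cytosol, and Acsl1, the main long-chain acyl-CoA synthetase of liver. Acsl1 (chromosome 8, 46471037 to 46536051) had 813, 523 and 1049.8 CPM in the controls and 201, 349 and 302 CPM in crizotinib replicates 1, 2 and 3. Its groups did not overlap, and the log2 fold change was -1.49 ± 0.44 (SE; adjusted p = 0.185). Fabp1 (chromosome 6, 71199827 to 71205023) had 2572, 699 and 2528 CPM in the controls and 55.9, 166 and 776 CPM in the crizotinib libraries. Control replicate 2 lay below crizotinib replicate 3, so the groups overlapped, and crizotinib replicate 1 was the lowest of all. The log2 fold change of Fabp1 was -2.54 ± 0.99 (SE; adjusted p = 0.283), and it was -4.14 without crizotinib replicate 3 (adjusted p = 0.0313). Per gene length Fabp1 was by far the most abundant of the 37, with 2771 ± 1325 FPKM in controls and 635 ± 791 FPKM in crizotinib livers (SD), and it ranked first in both groups.

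**Figure D2:**
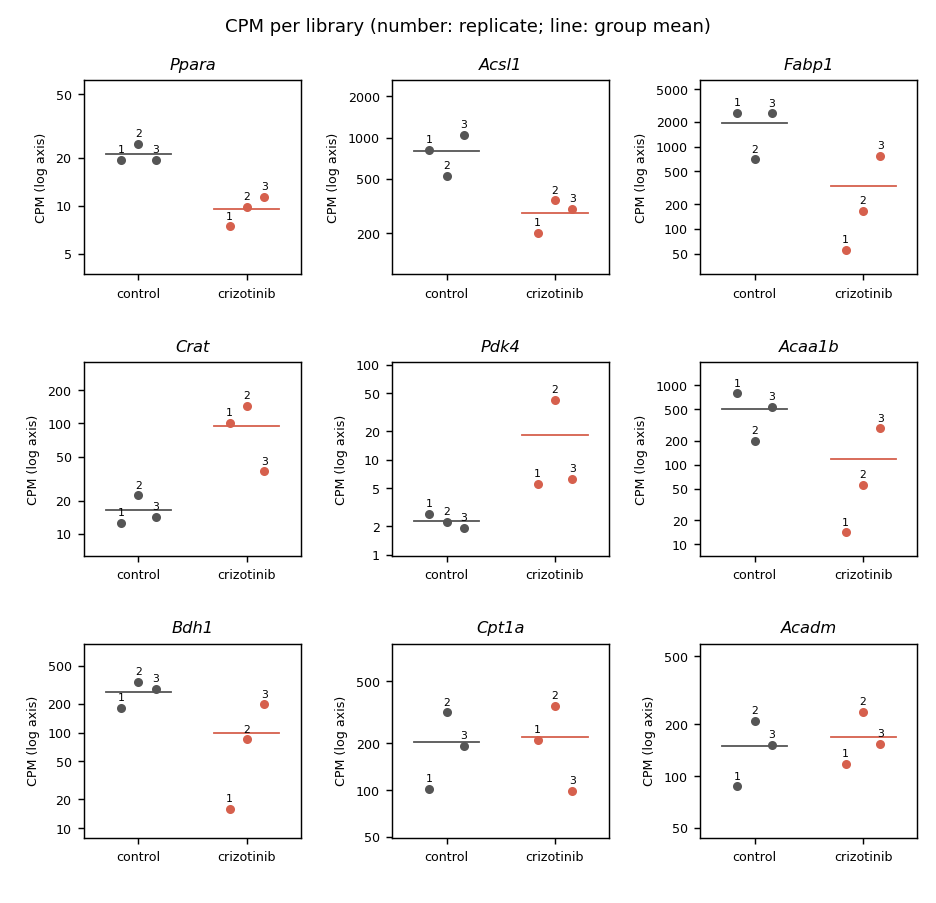
CPM of 9 of the genes in each library (y axes, log scale; x axes, group), with each library as a point numbered by its replicate and the group mean as a line. Ppara and Acsl1 lie lower, and Crat and Pdk4 higher, in every crizotinib library, while the groups of Cpt1a and Acadm overlap.

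In the carnitine shuttle the estimates of the mitochondrial entry steps were near 0, and Crat had the largest. Cpt1a, whose product makes the carnitine ester at the outer membrane and sets the rate of entry (chromosome 19, 3322334 to 3385733), had 102, 317 and 192 CPM in controls and 211, 349.8 and 98.3 CPM in crizotinib livers. Replicate 2 was the highest library of both groups, and the ranges nearly coincided. The log2 fold change was 0.11 ± 0.57 (SE; 95% interval -1.20 to 1.42), which spans folds of 0.435 to 2.68. Cpt2, which returns the chain to coenzyme A inside the mitochondrion, had 49.7, 84.4 and 63.6 CPM in controls and 51.4, 115 and 75.7 CPM in crizotinib livers, a log2 fold change of 0.29 ± 0.38 (SE). Slc25a20, the carrier between them, and Crot, the peroxisomal octanoyltransferase, had log2 fold changes of -0.08 and -0.12.

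Crat, which exchanges acetyl groups between coenzyme A and carnitine (chromosome 2, 30400471 to 30415771), had 12.5, 22.3 and 14.2 CPM in controls and 100.5, 144 and 36.8 CPM in crizotinib replicates 1, 2 and 3. All crizotinib libraries lay above all controls, with replicate 3 the nearest to them. Crat had a log2 fold change of 2.52 ± 0.52 (SE; 95% interval 1.33 to 3.72), or 5.74-fold higher, with the smallest adjusted p of the 37 (0.106). It stayed between 2.06 and 2.90 under the 15 other settings. Crat overlaps Dolpp1 on the opposite strand, which had a mean of 11.7 CPM and a log2 fold change of -0.06. Strand use in the counting is unknown from the labels and headers, so reads from the stretch that the pair shares cannot be told apart.

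The 4 acyl-CoA dehydrogenases, which take the first hydrogens from very long (Acadvl), long (Acadl), medium (Acadm) and short (Acads) chains, had log2 fold changes between -0.35 and 0.18. Acadm (chromosome 3, 153922357 to 153944632) had 87.0, 211 and 151 CPM in controls and 118, 237 and 154 CPM in crizotinib livers. Its groups overlapped almost completely, at a log2 fold change of 0.18 ± 0.43 (SE; 95% interval -0.82 to 1.18). Acads, with the lowest estimate of the 4, had 48.8, 148 and 133 CPM in controls and 63.8, 109 and 86.4 CPM in crizotinib livers, so control replicate 1 was the lowest library. Acadl had 107, 181 and 161 CPM in controls and 83.4, 162 and 153 CPM in crizotinib livers.

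The later steps of the spiral gave estimates below 0 for all 5 genes, from -0.87 for Acaa2 to -0.13 for Echs1, and every interval included 0. Hadha, the large subunit of the trifunctional protein for long chains (chromosome 5, 30118304 to 30155162), had 65.9, 223 and 169 CPM in controls and 100.1, 189 and 95.3 CPM in crizotinib livers. The controls alone spanned the whole crizotinib range, and the log2 fold change was -0.25 ± 0.50 (SE). Hadhb, its partner subunit, lies beside it on chromosome 5 and had a log2 fold change of -0.17. Hadh, the short-chain hydroxyacyl-CoA dehydrogenase, had 71.4, 178 and 143 CPM in controls and 44.3, 111 and 154 CPM in crizotinib livers. Acaa2, the mitochondrial thiolase, had 320, 506 and 742 CPM in controls and 106, 316 and 433 CPM in crizotinib livers (log2 fold change -0.87 ± 0.57 SE; adjusted p = 0.508). Crizotinib replicates 1 and 2 lay below every control for Acaa2, and replicate 3 lay within their range.

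Electrons from the dehydrogenases pass through the electron transfer flavoprotein, made from Etfa and Etfb, to the respiratory chain by way of Etfdh. Etfb had 323, 174 and 273 CPM in controls and 78.6, 139.9 and 245 CPM in crizotinib livers, and Etfa had 117, 182 and 206 CPM against 102, 142 and 187 CPM. The log2 fold changes were -0.73 for Etfb, -0.23 for Etfa and 0.36 for Etfdh, so the estimates of the 3 genes did not share a sign, and no interval excluded 0. The auxiliary enzymes that prepare unsaturated chains were lower in estimate for Decr1, Decr2, Eci1 and Ech1 and higher for Eci2. Decr2, the peroxisomal dienoyl-CoA reductase, had 75.1, 145 and 131 CPM in controls and 31.5, 66.2 and 89.4 CPM in crizotinib livers (log2 fold change -0.91 ± 0.45 SE; adjusted p = 0.382). Only crizotinib replicate 3 reached into the control range. Decr1, its mitochondrial counterpart, had 60.1, 119 and 110.0 CPM in controls and 30.4, 98.7 and 62.2 CPM in crizotinib livers.

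**Figure D3:**
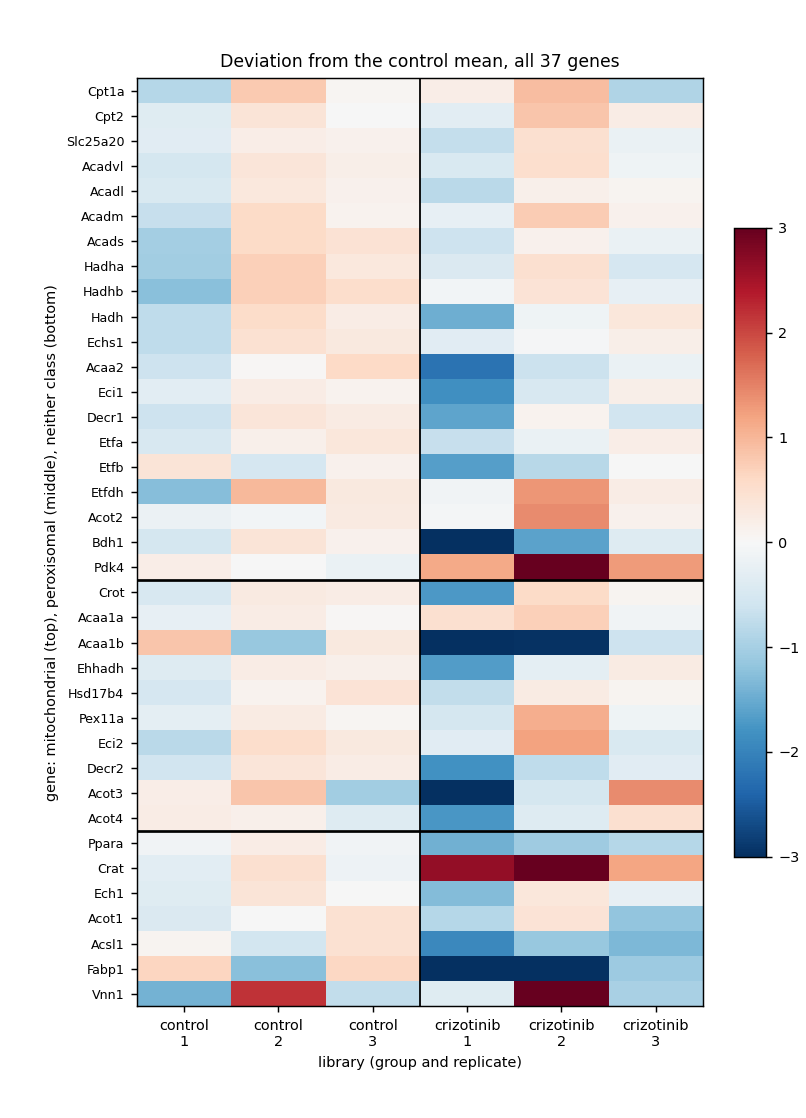
Log2(CPM + 0.5) minus the mean of the 3 controls (colour, ending at -3 and 3) for the 37 genes (y axis) in the 6 libraries (x axis, group and replicate), with lines between the mitochondrial, peroxisomal and other genes. Control replicate 1 and crizotinib replicate 1 are mostly blue and both replicates numbered 2 mostly red in the mitochondrial block, and crizotinib replicate 1 is the bluest library of the peroxisomal block.

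Genes of the pathway varied together from library to library, and this spread was wider than the difference between the group medians. Each library came from a mouse of its own, so animal and library cannot be told apart. Of the hepatocyte markers, control replicate 1 was likewise the lowest control for Apob, Cps1, Asgr1, Hnf4a, Serpina1c and Fgb. It was the highest control for Alb, Ttr and Apoa1. Among controls, replicate 1 held the lowest value for 30 of the 37 genes (81.1%), where it held the lowest value for 42.2% of all genes tested, and replicate 2 the highest for 26 (70.3%, against 35.7% of all genes). Among crizotinib livers replicate 1 was lowest for 29 genes (78.4%, against 32.6% of all genes) and replicate 2 highest for 23 (62.2%, against 25.6%). On the log2 scale the members' median deviation from the mean of controls was -0.45, 0.31 and 0.18 in control replicates 1, 2 and 3 and -0.74, 0.24 and -0.13 in crizotinib replicates 1, 2 and 3. Control replicate 1 was the library with 44.5% mitochondrially encoded counts, and it held the lowest control value for 18 of the 20 mitochondrial genes. Crizotinib replicate 1, with 5.67% of such counts, held the lowest crizotinib value for 17 of the 20. The part of library composition in this spread was not tested. Scaling without the mitochondrially encoded genes gave a median log2 fold change of -0.19 for the 37, beside -0.17 with them. Such a median compares the groups and does not measure the spread among libraries.

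Crizotinib replicate 1 lay below every control for 22 of the 37 genes (33.2% of all genes tested), crizotinib replicate 2 for 9 (33.1%) and crizotinib replicate 3 for 4 (22.6%). In the same order 3, 14 and 5 of the 37 lay above every control, beside 34.2%, 32.5% and 25.6% of all genes. Replicate 1 was mostly below the controls, and replicate 2 more often above than below. The median deviation of the peroxisomal class was -0.34, 0.23 and 0.19 in the controls, and -1.70, -0.02 and -0.02 in the crizotinib livers, so replicate 1 stood apart there. For the mitochondrial class it was -0.57, 0.37 and 0.21, and -0.54, 0.28 and 0.03.

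The peroxisomal core holds the bifunctional enzymes Ehhadh and Hsd17b4, the thiolases Acaa1a and Acaa1b, and Pex11a, a membrane protein of peroxisome division. Acaa1b (chromosome 9, 119148023 to 119157093) had 790.1, 200.02 and 541 CPM in controls and 14.1, 55.6 and 288 CPM in crizotinib replicates 1, 2 and 3. Crizotinib replicate 3 lay above control replicate 2, so the groups overlapped, and the log2 fold change was -2.10 ± 1.01 (SE; adjusted p = 0.375), reaching -3.89 without crizotinib replicate 3 (adjusted p = 0.0382). Its neighbour Acaa1a had 128, 176 and 155 CPM in controls and 212, 247 and 139.9 CPM in crizotinib livers, a log2 fold change of 0.39 ± 0.34 (SE). Per length, Acaa1b stood at 13.9, 2.56 and 7.87 times the level of Acaa1a in the controls and at 0.150, 0.506 and 4.63 times in the crizotinib livers, from the deposited FPKM. The 2 transcripts share stretches of sequence, with 28.5% of the 75-base words of Acaa1b also present in Acaa1a, so some reads may be counted for the other gene and both values are uncertain. Acaa1a also overlaps Myd88 on the opposite strand, which had a mean of 25.9 CPM and a log2 fold change of 1.57, the same sign as that of Acaa1a; its part in the Acaa1a counts was not tested.

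Ehhadh (chromosome 16, 21761287 to 21787807) had 102, 155 and 149 CPM in controls and 41.1, 109 and 159 CPM in crizotinib livers. Only crizotinib replicate 1 lay outside the control range by a wide margin, and the log2 fold change was -0.39 ± 0.49 (SE). Hsd17b4 and Pex11a had log2 fold changes of -0.12 and 0.30. The thioesterases, which free fatty acids from coenzyme A, differ in place: Acot1 is cytosolic, Acot2 mitochondrial, and Acot3 and Acot4 peroxisomal. Acot1 had 5.38, 7.37 and 10.3 CPM in controls and 3.92, 10.1 and 3.01 CPM in crizotinib livers, and Acot2 had 2.59, 2.80 and 3.74 CPM against 2.89, 8.85 and 3.36 CPM. Both were low, their groups overlapped, and 19.4% of the 75-base words of Acot1 occur in Acot2. Acot3 ranged from 0.733 CPM in crizotinib replicate 1 to 25.7 CPM in crizotinib replicate 3.

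Bdh1, which reduces acetoacetate to 3-hydroxybutyrate as the last step of ketone body formation (chromosome 16, 31422280 to 31458901), had 180.5, 339 and 285 CPM in controls and 15.8, 84.6 and 197 CPM in crizotinib replicates 1, 2 and 3. Crizotinib replicates 1 and 2 lay below every control, and replicate 3 lay within the control range. The log2 fold change was -1.43 ± 0.77 (SE; 95% interval -3.21 to 0.34; adjusted p = 0.421). From a list for ketone body synthesis, use and export 9 genes were tested and none was called; at an unadjusted p under 0.05, 1 stood higher and 2 lower (33.3% of the list, beside 15.3% of all genes), and the median log2 fold change was -0.13. Bdh2, a cytosolic relative of Bdh1, had 3.91 ± 0.973 and 1.11 ± 0.916 CPM (SD), and Slc16a1, a monocarboxylate transporter, 27.4 ± 12.9 and 65.0 ± 37.4 CPM.

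Pdk4 and Vnn1 are genes that PPARalpha is known to drive in fasted liver. Pdk4, which spares carbohydrate by blocking pyruvate dehydrogenase (chromosome 6, 5483351 to 5496309), had 2.70, 2.23 and 1.93 CPM in controls and 5.56, 42.7 and 6.25 CPM in crizotinib livers. All crizotinib libraries lay above all controls, and replicate 2 stood far above the others. For Pdk4 the log2 fold change was 2.99 ± 0.80 (SE; adjusted p = 0.160), and without crizotinib replicate 2 it was 1.37 (adjusted p = 0.343). Vnn1, a pantetheinase of the cell surface, had 1.13, 18.8 and 2.08 CPM in controls and 2.88, 51.1 and 1.71 CPM in crizotinib livers. Replicate 2 was the highest library of each group, by a wide margin in both. The log2 fold change of Vnn1 was 1.33 ± 1.41 (SE), and it was -1.69 without crizotinib replicate 2.

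Per gene length, the order of levels was led by Fabp1, followed in controls by Acaa2 at 315 ± 166, Acaa1b at 201 ± 73.7 and Etfb at 182 ± 24.1 FPKM (SD). Those 3 did not differ beyond their spread, and from Etfa at 83.8 ± 39.9 FPKM down to Acot2 at 1.22 ± 0.452 FPKM each gene overlapped the next within 1 SD. These SDs hold differences between libraries that the genes share, so such overlap does not show that the order changed within a library. Acadvl, for instance, lay above Acadl in each control (32.5, 115 and 79.9 against 31.8, 103 and 71.6 FPKM). Pdk4 closed the order at 0.555 ± 0.142 FPKM. In crizotinib livers Crat stood at rank 24 of the 37, from rank 34 in controls, and Acsl1 and Bdh1 at ranks 17 and 18, from ranks 8 and 9. Crat had 2.82 ± 1.71 FPKM in controls and 16.2 ± 8.22 FPKM in crizotinib livers. The 13 members not described with their values in each library had log2 fold changes from -0.52 to 0.36, and none had an adjusted p below 0.641.

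Promoter sequences of RefSeq on GRCm38.p6, each 300 bases from 250 before to 50 after a transcription start, were matched for 32 of the 37 genes. PPARalpha binds DNA with its partner RXR at a repeat of the half-site AGGTCA with a base between the copies. The full repeat, AGGTCA then any base then AGGTCA, on either strand, was in none of 35 windows of the members and in 0.0396% of all 32851 windows. With any base allowed at the fourth position of the first copy (AGGNCA), it was found for Fabp1 alone among the members and in 0.0944% of all windows; this looser form was chosen after the windows were seen. The half-site was in 8 of the 35 windows (22.9%), belonging to 7 genes, and in 16.3% of all windows. The half-sites within a repeat are counted among these. A match describes letters in the window and is not evidence of binding.

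Shown are Fabp1, with the repeat in capitals on the reverse strand 67 to 55 bases before the start and a further half-site, left in lower case, 9 to 4 bases before it, Cpt1a, with its half-site in capitals 94 to 89 bases before the start, and Pdk4, the gene with the largest estimate, which has neither in its window. The windows are chr6:71199629-71199928 on the plus strand, chr19:3323051-3323350 on the plus strand and chr6:5496229-5496528 on the minus strand.
Fabp1: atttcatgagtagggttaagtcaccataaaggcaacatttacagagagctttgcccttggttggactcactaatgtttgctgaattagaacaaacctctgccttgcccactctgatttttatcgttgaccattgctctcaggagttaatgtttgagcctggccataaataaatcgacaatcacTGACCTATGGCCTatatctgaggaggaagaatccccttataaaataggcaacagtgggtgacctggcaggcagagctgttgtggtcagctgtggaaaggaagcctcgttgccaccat
Cpt1a: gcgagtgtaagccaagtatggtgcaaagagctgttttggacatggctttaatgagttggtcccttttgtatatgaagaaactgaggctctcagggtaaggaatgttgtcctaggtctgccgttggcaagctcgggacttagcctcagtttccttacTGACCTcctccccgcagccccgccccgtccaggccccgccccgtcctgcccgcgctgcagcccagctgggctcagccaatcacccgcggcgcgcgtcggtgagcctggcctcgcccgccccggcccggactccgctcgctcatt
Pdk4: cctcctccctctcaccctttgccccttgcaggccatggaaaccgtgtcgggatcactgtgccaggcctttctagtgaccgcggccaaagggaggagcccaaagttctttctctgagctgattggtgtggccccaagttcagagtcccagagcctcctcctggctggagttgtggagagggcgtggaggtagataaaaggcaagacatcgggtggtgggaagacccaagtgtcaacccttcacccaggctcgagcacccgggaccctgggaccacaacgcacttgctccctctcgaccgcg
Fabp1 stood lower in estimate, Cpt1a near its control level and Pdk4 higher, as described with their values.

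Related genes outside the 37 were followed in 6 lists, that for ketone bodies included, and none of them was called. Counts at an unadjusted p under 0.05 in these lists stand beside 8.06% higher and 7.25% lower among all genes tested. Of 31 tested further genes of mitochondrial fatty acid oxidation, 3 were higher and 3 lower at an unadjusted p under 0.05, with a median log2 fold change of 0.05. Acsl3, an acyl-CoA synthetase linked to lipid droplets, had 11.2 ± 1.39 CPM in controls and 27.2 ± 1.85 CPM in crizotinib livers (SD; log2 fold change 1.28 ± 0.23 SE; adjusted p = 0.0771), opposite in sign to Acsl1. Slc22a5, the carnitine importer, had 11.04 ± 1.97 and 26.0 ± 13.3 CPM. The groups of both genes did not overlap, as for 25.8% of this list and 21.0% of all genes tested. Of 27 further peroxisomal genes, 2 were higher and 2 lower, with a median of -0.09. Nudt7, a coenzyme A hydrolase of peroxisomes, had 448 ± 208 and 81.6 ± 68.1 CPM (log2 fold change -2.46 ± 0.68 SE; adjusted p = 0.168), and Nudt19, another such hydrolase, had 24.9 ± 2.41 and 49.5 ± 12.5 CPM. None of 20 peroxisome assembly genes reached an unadjusted p under 0.05, and their median was 0.09.

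**Figure D4:**
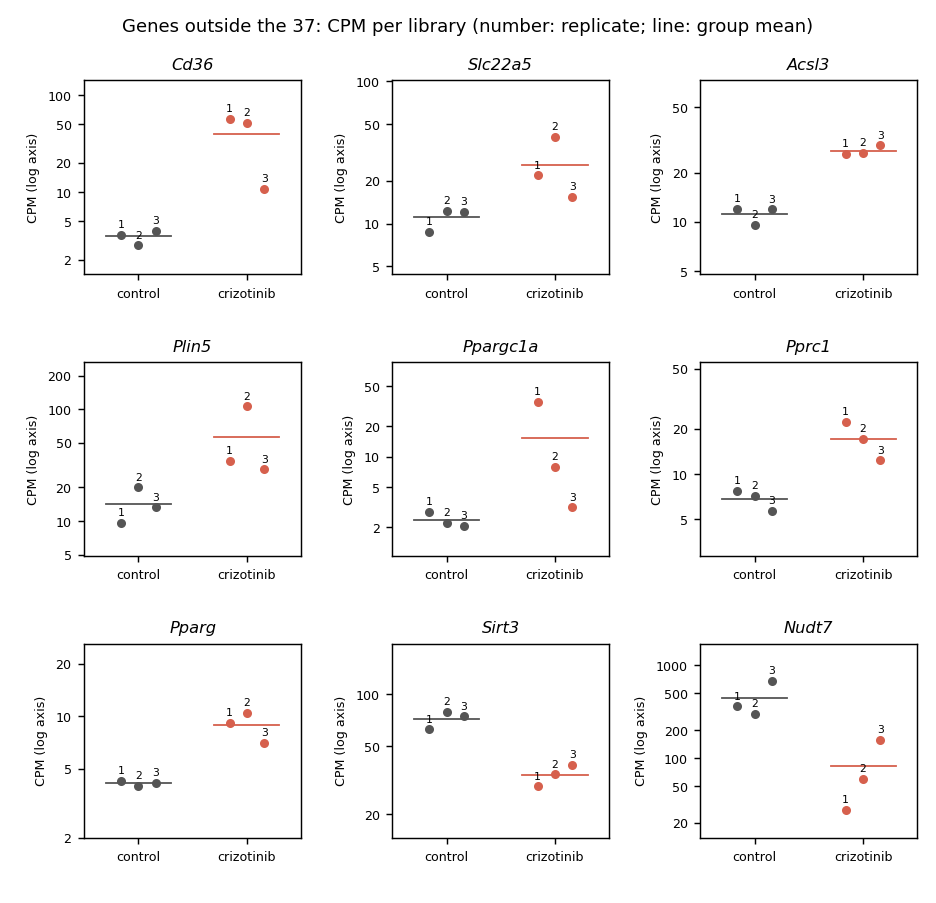
CPM of 9 genes outside the 37 in each library (y axes, log scale; x axes, group), with each library as a point numbered by its replicate and the group mean as a line. The 9 were picked from the genes of smallest p in their lists. That groups do not overlap for any of the 9 therefore follows in part from the choice. Over all genes tested, groups do not overlap for 21.0%. Crizotinib replicate 3 is the crizotinib library nearest to the controls for all but Acsl3.

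Of 32 further genes from a list of PPARalpha targets, 3 were higher and 4 lower at an unadjusted p under 0.05, with a median log2 fold change of -0.18. Whether each of them depends on PPARalpha in these livers was not tested. Cd36, a fatty acid translocase, had 3.61, 2.81 and 3.99 CPM in controls and 57.4, 51.5 and 10.7 CPM in crizotinib livers (log2 fold change 3.52 ± 0.60 SE; adjusted p = 0.0679). Plin5, a lipid droplet coat protein, had 14.3 ± 5.23 and 56.6 ± 42.9 CPM, while Cyp4a12a, a fatty acid omega-hydroxylase, had 699 ± 235 and 110.2 ± 67.0 CPM (log2 fold change -2.66 ± 0.59 SE; adjusted p = 0.121). Fabp2, the intestinal-type binding protein, had 56.0 ± 8.50 and 15.5 ± 9.82 CPM. Among 37 regulators, 5 were higher and 3 lower, with a median of 0.13. The coactivator genes Pprc1 and Ppargc1a stood at 6.87 ± 1.06 and 17.2 ± 4.95 CPM and at 2.38 ± 0.404 and 15.4 ± 17.1 CPM, and Pparg at 4.13 ± 0.131 and 8.87 ± 1.73 CPM. Sirt3, the mitochondrial deacetylase, stood at 72.1 ± 8.61 and 34.0 ± 4.81 CPM, and Pdk2, a relative of Pdk4, at 89.4 ± 9.63 and 43.4 ± 10.9 CPM, lower where Pdk4 was higher.

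Among the marker lists of other cell types, the summed levels of Kupffer, T and NK, and erythroid markers did not overlap between groups, and those of the other lists did. The 12 Kupffer cell markers summed to between 389.9 and 506 CPM in controls and between 40.9 and 72.6 CPM in crizotinib livers. By edgeR 7 of them were called lower, beside 0.249% of all genes tested, while no gene of another marker list was called. Estimates of 11 of the 12 were below 0, and that of Marco was 0.09 (adjusted p = 0.960). T and NK cell markers (12) summed to 12.5 to 14.4 CPM and 2.42 to 3.27 CPM, and erythroid markers (7) to 258 to 994 CPM and 31.7 to 197 CPM. Sums for stellate cells (10 markers) were 232 to 426 CPM and 146 to 238 CPM, for sinusoidal endothelium (9) 78.1 to 218 CPM and 50.2 to 78.6 CPM, for cholangiocytes (6) 55.0 to 103 CPM and 94.999 to 181 CPM and for B cells (6) 16.7 to 105 CPM and 36.2 to 110.2 CPM. The 9 neutrophil markers summed to 2.32 to 6.09 CPM and 3.71 to 25.8 CPM, and the 6 adipocyte markers in the table to 197 to 259 CPM and 184 to 300.3 CPM. Among those 6, the receptor gene Adipor2 had the highest level, and only 3 were detected in every library. That sum therefore cannot be read as a level of adipocytes. The 10 striated muscle markers in the table summed to 39.9 CPM in control replicate 1, mostly from the heart myosin gene Myh6, and to at most 2.55 CPM in the other libraries. Their part in the values of the 37 genes was not tested.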

How the data were processed

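Liver messenger RNA of 6 mice was sequenced from SMARTer libraries, per the labels' protocols. The deposited counts are whole-number reads per gene, not normalized, and the FPKM values beside them were computed by the authors, per the file headers. No aligner, counter, annotation or strand setting is named in the labels or headers. Start and end of 35 of the 37 genes equalled those of GENCODE M21 on GRCm38. Members and lists were chosen with earlier results of these data known. The filterByExpr function at a minimum count of 10 and a minimum total of 15 left 16492 genes, which were tested with edgeR 4.0.16 in R 4.3.3 (two-sided, threshold 0.05). Standard errors were derived from the quasi-likelihood F statistic. Alternatives were DESeq2 1.42.0, its size factors, no filter, limma 3.58.1 on log2(FPKM + 1) and log2(FPKM + 0.1), voom with library weights, removal of mitochondrially encoded genes, a replicate block, and libraries left out. The steps were tested on simulated counts. Values in each library are given for members without overlap between groups, the 2 of smallest p in each role and 12 fixed genes, and outside the members up to 6 genes of smallest p per list could be named, mostly by group means. Each library is from a mouse of its own, per the series' account, and totals of 51123361 to 67947970 counts set the depth.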

Additional observations from a re-analysis of the deposited data

How the results depend on the processing

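Over the 37 genes and 15 other settings, 483 of 555 fold changes kept their direction and side of the threshold, 21 became called and 51 changed sign; 18 genes never changed sign. The 0 genes called higher and 0 called lower became 2 and 3 by DESeq2, 2 and 6 by voom with library weights, 2 and 3 without crizotinib replicate 3, and 1 and 2 without control replicate 1 and crizotinib replicate 3. Voom called Acaa1b, Bdh1 and Decr2 besides the 5 genes of DESeq2, in a fit that called 19.5% of all genes. Leaving out 1 library at a time gave 0 to 2 higher and 0 to 3 lower, and medians of -0.44 to 0.05 for the 37, -0.44 to 0.04 for mitochondrial and -0.54 to 0.22 for peroxisomal genes. On log2(FPKM + 1) and log2(FPKM + 0.1) the median of the 37 was -0.04 and -0.03. With the replicate block no gene in the table was called at an adjusted p under 0.05, and the median of the 37 was -0.23; same-numbered libraries deviated from their group means with r of -0.15, 0.16 and -0.09, so the numbers were not taken to pair the animals. On the FPKM scales, in the same order, the estimates of Acadl (0.000147 and 0.00162) and Hadha (0.00647 and 0.0361) turned above 0, among 8 members that changed sign under each, and both stayed below the medians of all genes there (0.07 and 0.16). Leaving libraries out gave -0.50 to 0.0808 for Acadl, -0.14 to 0.49 for Acadm, -0.41 to 0.56 for Cpt1a, -0.0533 to 0.53 for Cpt2, -1.07 to 0.0168 for Hadh, -0.65 to 0.10 for Hadha and -1.69 to 3.51 for Vnn1. Sign changes to below 0 came without control replicate 1 (Cpt1a -0.23, Acadm -0.11), without crizotinib replicate 2 (Cpt1a, Cpt2, Acadm, Vnn1) or without control replicate 1 and crizotinib replicate 3 (Acadm -0.0537), and those to above 0 without crizotinib replicate 1 (Acadl, Hadh) or control replicate 2 (Hadha). All genes called numbered 56 by edgeR on all libraries, 1103 by DESeq2, 3217 by voom, 0 to 1504 with 1 library left out and 1718 with both left out. The cause of these differences was not tested.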
